A study of Danio rerio with 2 samples.

Results

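The genes described are 7 genes of insulin-like growth factor signalling: the ligand genes igf2a and igf1, the receptor genes igf1ra and igf1rb, and the binding protein genes igfbp1a, igfbp2a and igfbp3. They were chosen by name, as probes whose gene name in the array files is that of a chosen gene or its older form (igf2, igfbp1, igfbp2). The choice was made with their mutant over wild-type ratios already known, so these ratios are described here and not tested. The rule found 7 of the 17980 genes or transcripts named on the array, with 8 of its 21495 gene probes, igf1rb being the gene with a pair of probes. In the study, zebrafish mutants with both copies of gnl2 carrying the bw41c allele were compared with wild-type (TL) embryos, gnl2 encoding a nucleolar GTPase that takes part in assembly of the large ribosomal subunit. Both groups were collected as whole embryos at 22 hours post-fertilization, with 40 embryos pooled for each RNA extract. Mutants came from crosses between heterozygous carriers, part of the collected embryos was used up for genotyping, and the labels do not say whether wild types and mutants were siblings. Each of 2 arrays carried RNA of both genotypes, labelled Cy5 for the mutant on array 1 and Cy3 for the mutant on array 2, so that every ratio rests on n = 2.

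Insulin-like growth factors are secreted peptides related to insulin. They bind the receptor tyrosine kinase Igf1r, which passes the signal through adaptor proteins to the PI3K, Akt and TOR kinases and to the Ras and MAP kinase cascade, and so promotes growth and survival of cells. Active Akt keeps FOXO transcription factors out of the nucleus, and Igf binding proteins hold the ligands outside the cell and limit or prolong their action. In zebrafish this signalling sets the growth and pace of the early embryo. Teleost fish carry duplicates of several of these genes, among them igf2a with igf2b and igf1ra with igf1rb.

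The RNA of gnl2 itself, read by 1 probe, had log2 ratios of -0.99 and -2.27 and a mean of -1.63 ± 0.91 (SD, n = 2); where the probe lies relative to the bw41c change was not analysed here. After filtering, 19284 probes were tested with limma, and none had an adjusted p under 0.05 (0% of probes), while 632 had an unadjusted p under 0.05. Over all probes the median SD of the log2 ratio between the arrays was 0.11. Of 31 listed cell type markers of notochord, muscle, nervous system, blood, endothelium, yolk and epidermis, 26 had a probe under their current name. All 26 passed the filter and, by the brightest probe of each, were well above background in every reading. The series text speaks of 2 biological replicates with a dye swap, while the array titles end in the same number. The arrays may therefore share their extracts, in which case SDs and p-values measure technical spread alone. In pools of whole embryos, fewer cells of a type and less RNA per cell cannot be told apart.

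Among the insulin-like growth factor genes, igf2a alone was at least 2-fold higher in mutants on both arrays, by 3.20-fold on average. The other 7 probes had mean log2 ratios between -0.29 and 0.48. By direction, 2 probes were higher in mutants on both arrays, 3 were lower on both and 3 differed in direction between the arrays. All 8 probes were well above background in both genotypes on both arrays and none was saturated, with signals 2.80 to 49.98 times the local background. Over all probes tested, 0.124% were at least 2-fold higher on both arrays and 0.00519% at least 2-fold lower. By any amount, 21.4% were higher on both arrays and 20.0% lower, and 11301 of 19284 differed in direction. Since the genes were chosen with these ratios known, the counts are set beside those shares without a comparison. The median size of the deviation of either array from their mean was 0.040 for the 8 probes and 0.075 for all probes. In this deviation dye, array and replicate cannot be told apart.

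Igf2a is a ligand of the Igf1 receptor and the zebrafish counterpart, with igf2b, of the mammalian fetal growth factor Igf2. On array 1 its normalised signal was 1031 in mutants and 326 in wild types. On array 2 it was 451 in mutants and 139 in wild types. Both mutant readings lay above both wild-type readings, and the gap was of nearly the same proportion on each array although array 2 was dimmer. Signals were not scaled between the arrays, so here and below any order or overlap of readings across arrays also reflects array brightness. The log2 ratios of mutant over wild type were 1.66 and 1.70, that is 3.16-fold and 3.25-fold, with a mean of 1.68 ± 0.03 (SD, n = 2). This placed the igf2a probe 10th from the highest among the 19284 tested. Its dimmest reading, wild type on array 2, was 2.80 times the local background.

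Igf1, the ligand that in vertebrates links growth hormone to growth after birth, differed little between the genotypes. Its signal was 208 in mutants and 212 in wild types on array 1. On array 2 it was 200.3 in mutants and 207 in wild types. The readings of the genotypes overlap, and the wild-type reading was slightly the higher one on each array. The log2 ratios were -0.029 and -0.050, with a mean of -0.039 ± 0.015 (SD, n = 2).

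**Figure D1:**
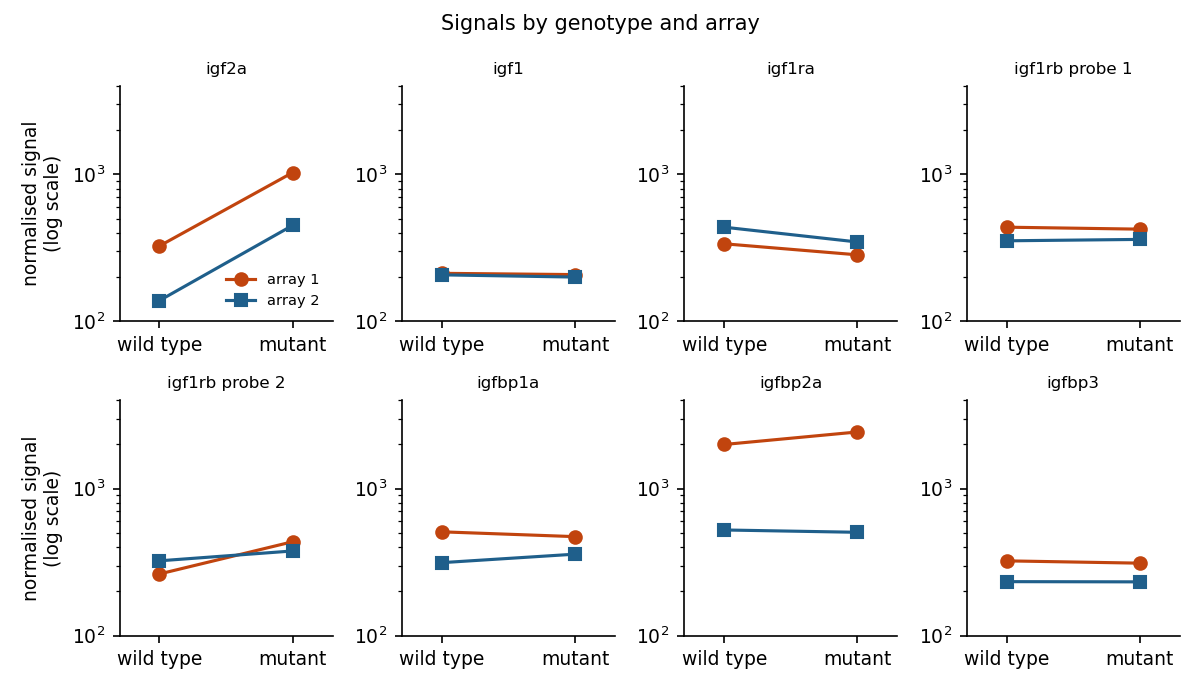
Normalised signal (log axis, arbitrary units) in wild types and mutants for each of the 8 probes of the insulin-like growth factor genes. Circles are array 1 and squares array 2, and a line joins the genotypes hybridised together. The igf2a lines climb steeply and in parallel, from 326 to 1031 and from 139 to 451, while the other lines are nearly flat or differ in slope between the arrays.

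The receptor gene igf1ra was lower in mutants on both arrays by a small amount. Its signal was 284 in mutants and 338 in wild types on array 1. On array 2 it was 347 in mutants and 438 in wild types. The wild-type reading was the higher one on each array, although the mutant reading of array 2 exceeded the wild-type reading of array 1. This gave log2 ratios of -0.25 and -0.33, with a mean of -0.29 ± 0.06 (SD, n = 2), or 1.22-fold higher in wild types. A further probe, tied to igf1ra only through a synonym in the reference table and left out of the tested set for an outlier flag, gave log2 ratios of 0.10 and -0.13 and a mean of -0.014 ± 0.163 (SD, n = 2). The lower signal in mutants was therefore seen with 1 of the 2 probes that may measure igf1ra.

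The receptor gene igf1rb, the duplicate of igf1ra, was read by probes that disagreed. The first gave 424.5 in mutants and 438 in wild types on array 1, and 361 and 354 on array 2. Its log2 ratios of -0.044 and 0.032 have opposite signs and a mean of -0.0064 ± 0.054 (SD, n = 2). The second probe gave 436 in mutants and 263 in wild types on array 1, and 377 and 323 on array 2. Both of its mutant readings lay above both of its wild-type readings. Its log2 ratios of 0.73 and 0.22 have a mean of 0.48 ± 0.36 (SD, n = 2), or 1.39-fold, the larger ratio being that of the array on which mutant RNA carried Cy5. The probe means lay 0.48 apart on the log2 scale, and no single direction is given for igf1rb.

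The binding protein genes showed no difference of the same direction and of more than a few hundredths of a log2 unit on both arrays. Igfbp1a encodes a binding protein whose RNA rises under low oxygen and fasting in zebrafish and which restrains embryo growth when abundant. Its signal was 472 in mutants and 509 in wild types on array 1, and 359 and 314 on array 2. Mutants were thus the lower group on array 1 and the higher one on array 2. The log2 ratios were -0.11 and 0.19, with a mean of 0.042 ± 0.213 (SD, n = 2).

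Igfbp2a encodes a binding protein that circulates and binds Igf1 and Igf2. Its signal was 2433 in mutants and 2000.1 in wild types on array 1, and 505 and 524 on array 2. Both readings of array 1 stood far above those of array 2, and the order of the genotypes differed between the arrays. The log2 ratios were 0.28 and -0.052, with a mean of 0.12 ± 0.24 (SD, n = 2). The spot carried an outlier flag on array 1, so the probe is not among the 19284 tested.

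Igfbp3 encodes the main carrier of Igf in mammalian blood and acts in ear and pharyngeal cartilage formation in zebrafish. Its signal was 311 in mutants and 323 in wild types on array 1, and 232 and 233 on array 2. The genotypes were nearly level on each array. Its log2 ratios were -0.052 and -0.0048, with a mean of -0.028 ± 0.033 (SD, n = 2). In the gene order of assembly GRCz12tu igfbp3 and igfbp1a are next to each other on chromosome 20. Of the 10 protein-coding neighbours of igf2a on chromosome 7, 5 to each side, none had a tested probe under its current name.

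The duplicate ligand gene igf2b, present on the array under a clone name and identified by its transcript accession, was not among the 7 genes and was also higher in mutants. Its first probe gave 1308 in mutants and 777 in wild types on array 1, and 585 and 388 on array 2. The mutant reading was the higher one on each array, while the readings of the genotypes overlap across arrays. The log2 ratios were 0.75 and 0.59, with a mean of 0.67 ± 0.11 (SD, n = 2), or 1.59-fold. Its second probe gave 0.75 and 0.57, and all 4 ratios lay between 0.57 and 0.75. By limma the first probe had an unadjusted p of 0.0032 and an adjusted p of 1.00, so igf2b did not pass the test. Insulin itself, ins, was read by probes with mean log2 ratios of -0.028 and -0.0058. A transcript annotated as resembling Igfbp1 had a mean of 0.027 ± 0.031 (SD, n = 2), and one annotated as an Igf1 subtype had 0.052 ± 0.015 (SD, n = 2).

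**Figure D2:**
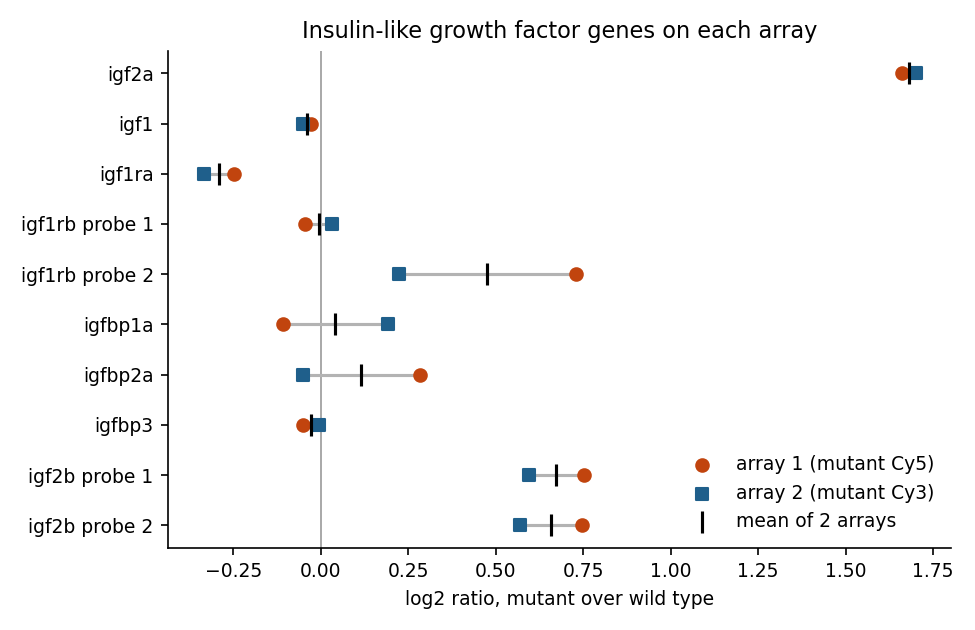
Log2 ratio of mutant over wild type on array 1 (circles, mutant RNA in Cy5) and array 2 (squares, mutant RNA in Cy3) for the 8 probes of the insulin-like growth factor genes and both igf2b probes, with the mean of the arrays as a black tick. Igf2a lies at 1.66 and 1.70, igf2b between 0.57 and 0.75, and the remaining probes between -0.33 and 0.73.

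Markers of skeletal muscle, like igf2a and igf2b, were higher in mutants, and 2 of 3 erythroid markers were also higher on both arrays. By the brightest probe of each gene, all 5 muscle markers (myod1, myog, actc1b, acta1b and desma) were higher in mutants on both arrays, with mean log2 ratios of 0.41 to 0.53. A dimmer myod1 probe had 0.089 and a dimmer actc1b probe 0.11. The summed signal of the brightest probes was 51407 in mutants and 36238 in wild types on array 1, and 25445 and 19391 on array 2. Of the 4 neural markers (sox2, elavl3, neurod1 and pax6a), 3 were lower in mutants on both arrays and 1 was higher on both, with summed signals in mutants and wild types of 8122 against 10287 on array 1 and 7329 against 7685 on array 2. The higher one was elavl3, whose 3 probes had means from -0.14 to 0.080, and of the lower ones neurod1 was nearly level, at -0.030 and -0.00061. Pax6a had -0.24 and -0.026. The neural sums include sox2, the largest difference of the 4, at -0.86 and -0.36. Its signals in mutants and wild types were 2493 against 4520 on array 1 and 2230 against 2860 on array 2. None of the 4 markers of yolk syncytial layer and liver that passed the filter was higher on both arrays and 2 were lower on both, with a median log2 ratio of 0.019. Of those lower on both, apoeb was saturated in 1 reading, and its 9 probes had means from -0.41 to 0.26. The other, ttr, was nearly level, at -0.033 and -0.057. The median log2 ratio was 0.26 for 3 notochord, 0.28 for 3 erythroid and 0.09 for 3 endothelial markers. It was -0.39 for 4 epidermal markers, of which 3 were saturated in some reading. Medians on array 1 and array 2 were 0.042 and 0.15 for notochord, 0.32 and 0.037 for endothelium, and -0.85 and -0.039 for epidermis. In each of these lists 2 markers differed in direction between the arrays. Icn, the epidermal marker without saturation, had -0.50 and -0.54. The erythroid markers higher on both arrays were hbbe2, at 0.62 and 0.59, and gata1a, at 0.34 and 0.027. The remaining erythroid marker, hbae3, had -0.23 and 0.79. The part of these differences in cell type markers in the igf2a and igf2b ratios was not tested.

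Genes with a pair of ratios like that of igf2a were sought among tested probes that the reference tables could name. Probes that kept the name in the array files were left out. By the Euclidean distance over both arrays, the nearest were foxo3b at a distance of 0.19, vrk2 at 0.19, upb1 at 0.19, mmp2 at 0.24 and gtpbp1l at 0.39. Foxo3b encodes a FOXO transcription factor, vrk2 a serine/threonine kinase, upb1 an enzyme of pyrimidine breakdown and mmp2 a matrix metalloproteinase. Vrk2 had a mean log2 ratio of 1.76 ± 0.18 (SD, n = 2) and upb1 of 1.55 ± 0.03 (SD, n = 2). Mmp2 had 1.52 ± 0.04 (SD, n = 2) and gtpbp1l 1.40 ± 0.05 (SD, n = 2). With only 2 arrays, this likeness says no more than that the ratios of these genes are of nearly the same size at offset 50. With the scanner software's processed signals the means were 2.07 for igf2a, 2.09 for vrk2 and 2.02 for gtpbp1l. Those of foxo3b and upb1 were 1.75 each, and that of mmp2 was 1.57. At offset 0, igf2a had 2.00, vrk2 2.02, gtpbp1l 1.91 and foxo3b 1.73. With processed signals and at offset 0, vrk2 was thus the nearest by its mean, and gtpbp1l was nearer than foxo3b. Under median centring foxo3b was the nearest by its mean, at 1.70 against 1.72 for igf2a, with 1.80 for vrk2 and 1.44 for gtpbp1l.

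**Figure D3:**
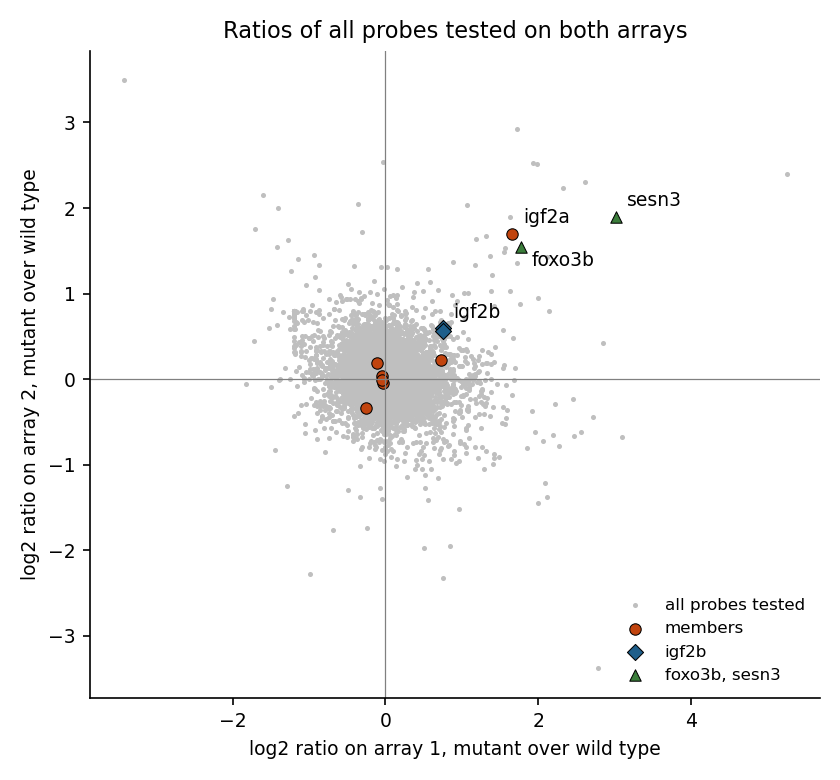
Log2 ratio of mutant over wild type on array 1 (horizontal axis) against array 2 (vertical axis) for the 19284 probes tested (grey). Coloured symbols mark the tested probes of the insulin-like growth factor genes (circles), both igf2b probes (diamonds), and foxo3b and sesn3 (triangles). Igf2a lies near the diagonal beside foxo3b, far from the grey cloud, and the other circles lie within it.

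Of 168 genes listed for the wider pathway, leaving out the 7 genes above, 72 were matched to a tested probe. The brightest was used where there were several. Insulin, listed as insa, was not matched to its tested probes, named ins, and is not counted. None of the 72 passed limma's adjusted threshold. Of the 72, 23 (31.9%) were higher in mutants on both arrays, 10 (13.9%) lower on both, and 39 differed in direction between the arrays. Over all probes 21.4% were higher on both arrays and 20.0% lower, and 11301 of 19284 differed in direction. The median log2 ratio of the 72 genes was 0.014, against 0.0019 over all probes. An unadjusted p under 0.05 in limma was reached by 9 genes (12.5%), all higher in mutants, against 2.03% of all probes higher and 1.24% lower. These 9 were igf2b, gab1, foxo3b, sesn3, eif4ebp1, map2k1, spry4, pgk1 and ndrg1a. Foxo3b and sesn3 were at least 2-fold higher on both arrays, against 0.124% of all probes, and no gene was 2-fold lower, against 0.00519%. Shares and median of the 72 genes rest on the brightest probe of each gene. Those over all probes count every tested probe, dim ones included, so the measures are not alike. The lists were drawn up with earlier results of these data known and serve as description.

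The list of ligands and extracellular regulators also holds the intracellular Igf2 mRNA-binding proteins. Of its 24 genes 7 were matched to a tested probe, with a median log2 ratio of 0.22. Insulin, listed as insa, was not matched to its tested probes, named ins, and is not among the 7. Of the 7, igf2bp1, igf2bp2b and igf2bp3 are such RNA-binding protein genes, so the counts and the median do not describe secreted proteins alone. By direction, 3 of the 7 were higher in mutants on both arrays, 2 lower on both and 2 split. Igf2bp3, counted as lower by its brightest probe, had 0.35 and 0.038 by its dimmer probe. After igf2b the largest was that of igfbp5b, a binding protein gene, at 0.24 ± 0.35 (SD, n = 2), with -0.0065 on array 1 and 0.48 on array 2. Igf2bp2b, which encodes an RNA-binding protein that binds Igf2 transcripts in mammals, had 0.22 ± 0.08 (SD, n = 2). Igfbp7, a low-affinity relative of the binding proteins, had 0.22 ± 0.17 (SD, n = 2). The list's median was 0.089 on array 1 alone and 0.097 on array 2 alone.

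Among receptors and adaptors 9 of 27 listed genes were tested, 4 higher on both arrays, 3 lower on both and 2 split, with a median of 0.045. Gab1, a docking protein downstream of receptor tyrosine kinases, gave 623 in mutants and 466 in wild types on array 1, and 490 and 361 on array 2. Its ratios of 0.42 and 0.44 were close, with a mean of 0.43 ± 0.02 (SD, n = 2), whereas a dimmer gab1 probe had 0.17. Ptpn1, a phosphatase of the insulin and Igf1 receptors, had -0.29 ± 0.16 (SD, n = 2) and was lower in mutants on both arrays. Grb2a and grb2b encode the adaptor that brings Sos to the receptor. Grb2a had 0.18 ± 0.05 (SD, n = 2), and grb2b had -1.10 on array 1 and 0.70 on array 2, a pair of opposite ratios with no common direction.

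Among PI3K, Akt and FOXO genes 14 of 33 were tested, with a median of -0.00050. Of the 14, 12 differed in direction between the arrays, against 11301 of all 19284 probes tested. The exception in size was foxo3b, which in mammals as Foxo3 turns on growth arrest and stress resistance genes when Akt is inactive. Its signal was 3252 in mutants and 954 in wild types on array 1, and 1592 and 545 on array 2. Both mutant readings lay above both wild-type readings, with log2 ratios of 1.77 and 1.55 and a mean of 1.66 ± 0.16 (SD, n = 2), or 3.16-fold. In limma it had an unadjusted p of 2.1e-04 and an adjusted p of 0.50. Its duplicate foxo3a had -0.018 ± 0.187 (SD, n = 2). The next in size were pik3r3b, a regulatory subunit of PI3K, at 0.20 ± 0.46 (SD, n = 2), and the kinase genes sgk1 at 0.18 ± 0.27 and pdpk1b at 0.14 ± 0.21 (SD, n = 2), each with ratios of opposite sign on the arrays. A dimmer pik3r3b probe had a mean of -0.11.

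Among genes of TOR and translation control 16 of 32 were tested, 6 higher on both arrays, 2 lower on both and 8 split, with a median of 0.013. Sesn3 encodes a sestrin, a stress protein that restrains TOR complex 1 in mammals and is there a FOXO target. Its signal was 5108 in mutants and 630.1 in wild types on array 1, and 1371 and 368 on array 2. Both mutant readings lay above both wild-type readings. Log2 ratios were 3.02 and 1.90, with a mean of 2.46 ± 0.79 (SD, n = 2), while a dimmer sesn3 probe had 0.09, so the probes disagreed. Eif4ebp1, a repressor of translation that TOR complex 1 switches off, had 0.67 and 0.49 and a mean of 0.58 ± 0.12 (SD, n = 2), and its 3 probes lay between 0.47 and 0.67. Ddit4, another inhibitor of TOR complex 1, had -0.86 on array 1 and 0.0075 on array 2. The ribosomal protein gene rps6, saturated in 1 of its readings, had -0.37 ± 0.39 (SD, n = 2), and its other probe had 0.04.

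Among Ras and MAP kinase genes 13 of 22 were tested, 5 higher on both arrays, 2 lower on both and 6 split, with a median of -0.014. Map2k1, the kinase that activates Erk, had 0.51 and 0.58 and a mean of 0.54 ± 0.05 (SD, n = 2), but its 5 probes ranged from -0.02 to 0.54. Spry4 and dusp5, which encode feedback inhibitors of the cascade, had 0.31 ± 0.08 and 0.19 ± 0.16 (SD, n = 2), both higher on each array. Other listed inhibitors of the cascade were not: dusp6 had -0.21 and 0.092, and spry2 -0.24 and 0.16. Spred1 had -0.052 and -0.0044, and its 4 probes had means from -0.07 to 0.12. The kinase gene araf had 0.13 on array 1 and -0.47 on array 2, by a probe that the array files name ARAF. Another probe of that name in the array files, not matched to araf by the reference tables, had -0.11 and 0.14.

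Hypoxia genes were listed because low oxygen raises igfbp1a in zebrafish. Of 30 listed genes 13 were tested, 4 higher on both arrays, none lower on both and 9 split, with a median of 0.063. The glycolytic gene pgk1 had 0.52 and 0.40 and a mean of 0.46 ± 0.09 (SD, n = 2), and its other probe had 0.33. Ndrg1a, a gene raised by low oxygen, had 0.34 ± 0.18 (SD, n = 2), with -0.0049 for another probe. The glycolytic gene ldha had 0.83 on array 1 and -0.20 on array 2, and the vascular growth factor gene vegfaa -0.55 and 0.13, so neither had a common direction. The list's median was 0.28 on array 1 and 0.038 on array 2, and igfbp1a itself had -0.11 on array 1 and 0.19 on array 2.

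**Figure D4:**
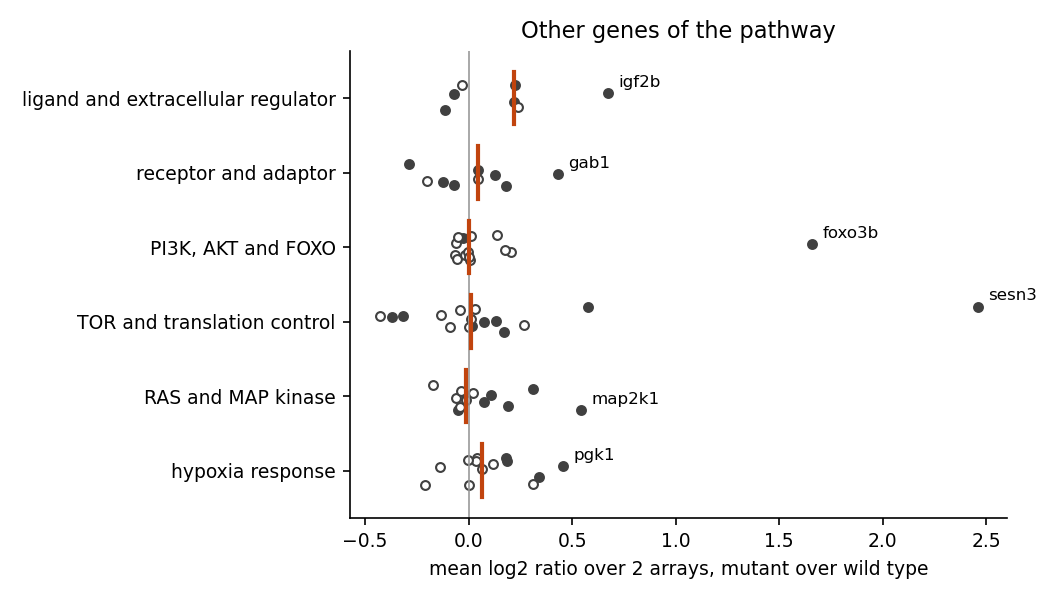
Mean log2 ratio of mutant over wild type over both arrays (horizontal axis) for the 72 tested genes of 6 lists around insulin-like growth factor signalling, 1 point a gene. Filled points are genes with the same sign on both arrays, open points genes with opposite signs, and red bars are list medians. Foxo3b at 1.66 and sesn3 at 2.46 stand far to the right of their lists, whose medians lie near 0.

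Under 7 other settings for background, dye normalisation, filters and the source of the ratio, the mean ratio of each of the 8 probes kept its sign. Changes of filter alone leave a probe's ratio as it is, and the deposited table repeats the processed signals almost exactly. The kept sign therefore rests on processed signals, median centring and offset 0. The mean for igf2a ranged from 1.68 to 2.07, the highest value coming from the scanner software's processed signals. The second igf1rb probe ranged from 0.45 to 0.58, igf1ra from -0.36 to -0.29 and igfbp2a from 0.11 to 0.17. When loess was replaced by median centring, foxo3b and sesn3 passed limma's adjusted threshold, among 38 probes in all on the array. List medians close to 0 turned sign with the scanner's processed signals, to -0.0093 for receptors and adaptors, 0.00061 for PI3K, Akt and FOXO, -0.0021 for TOR and translation control and 0.0059 for Ras and MAP kinase genes.

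**Figure D5:**
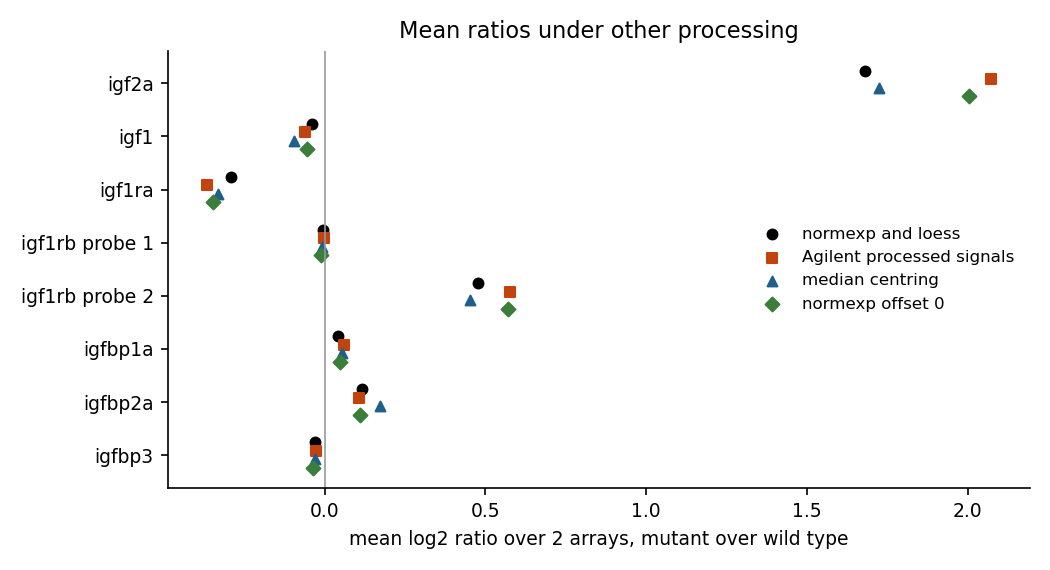
Mean log2 ratio over both arrays (horizontal axis) of the 8 probes under normexp with loess (circles), the scanner software's processed signals (squares), median centring (triangles) and normexp with an offset of 0 (diamonds). For igf2a the points spread from 1.68 to 2.07, and for every probe they stay on the same side of 0.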

How the data were processed

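RNA from pools of gnl2 mutant and of wild-type embryos was compared on 2 dye-swapped arrays, each taken as 1 replicate. The deposited intensity values, per the file headers, come from Agilent Feature Extraction A.7.5.1. They are mean spot signals with their median local background, and processed signals after LOWESS dye normalisation. Per the file headers, a further column holds the log10 ratio of red over green. A p-value column, per the file headers, comes from an error model that the software fits to single arrays. The log10 ratios of the deposited series table are not turned for the dye swap. Each array held 21495 gene probes, of which 749 with outlier flags on either array and 1462 not well above background were left out, leaving 19284.

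Signals were corrected with normexp (offset 50), which draws ratios of dim spots towards 0, and normalised by loess (span 0.3) in limma 3.58.1 under R 4.3.3. Signals were not scaled between the arrays. Ratios of array 2 were turned to give mutant over wild type. Probes were tested with lmFit and eBayes, 2-sided, with Benjamini-Hochberg adjustment over all 19284 and a threshold of 0.05. The script was tested on simulated data. Probes that reached 2-fold in the same direction on each array were counted separately. The number of arrays limits the precision.

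Gene names followed reference tables of assembly GRCz12tu, which named 7352 probes by accession, 594 by symbol and 2340 by synonym, while 11209 kept the name in the file. The members and lists were chosen with earlier results of these data known. Named were all members and the 4 genes of each pathway list with the largest mean ratio in either direction. Also named were the 5 genes nearest to igf2a among tested probes matched by accession, symbol or synonym. Foxo3a, dusp6, spry2, spred1 and ins follow no such rule. Nor do the second probe tied to igf1ra, the unmatched ARAF probe and the transcripts annotated as Igfbp1 or Igf1. All of these were named after their values were seen. Alternatives were processed signals, median centring, offset 0, 2 other filters, flagged probes kept, the deposited table, each array left out, and the software's error model.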

Additional observations from a re-analysis of the deposited data

How the results depend on the processing

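No probe of the array had an adjusted p under 0.05 in limma, but 38 did with median centring in place of loess, and the scanner software's error model gave 133 probes with p under 0.01 on both arrays in the same direction. With median centring, 2 genes of the pathway lists passed, foxo3b and sesn3. Probes at least 2-fold lower on both arrays numbered 1, against 6 with processed signals, 6 with the deposited table, 2 with median centring and 3 with offset 0. On a single array the count at least 2-fold lower was 27 to 99 and the count at least 2-fold higher 58 to 159, against 24 on both arrays, a requirement that 1 array cannot apply. The median of ligands and extracellular regulators, 0.22, became 0.25 with processed signals and with the deposited table, 0.26 with median centring, 0.24 with offset 0, and 0.089 to 0.097 on single arrays. The median of receptors and adaptors became -0.0093 with processed signals and with the deposited table, and that of PI3K, Akt and FOXO genes -0.0069 with median centring. On single arrays the medians ranged from 0.011 to 0.045 for TOR and translation control, from 0.055 to 0.090 for Ras and MAP kinase genes, and from 0.038 to 0.28 for hypoxia genes, and the causes of these shifts were not tested. The igf2a mean was 2.07 with processed signals and with the deposited table, 2.00 with offset 0 and 1.72 with median centring, and 1.66 to 1.70 on single arrays. Leaving out 1 array turned the sign of the first igf1rb probe, igfbp1a and igfbp2a. Each ratio already pairs mutant with wild type within an array, so no other pairing was fitted. Array, replicate and dye orientation cannot be told apart, and with 1 residual degree of freedom the adjusted p-values rest mostly on spread pooled over probes. The wild-type igf2a reading on array 2, at 2.80 times the local background, was the dimmest of the 8 probes against its background.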
